A study of Mus musculus with 22 samples.

Results

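Open chromatin in mouse liver 64 days after YAP1 was switched off was compared with open chromatin 14 days after, with day 33 as the point between. Each day was 1 library, labelled YapOffD14, YapOffD33 and YapOffD64, which makes 3 of the 5 open-chromatin libraries and 3 of the 22 samples of the series. They were made by Omni-ATAC, which marks open DNA in nuclei with a cutting transposase, from tissue labelled only as liver, with no strain, age, sex or number of animals. The other open-chromatin libraries were 1 labelled YapOn and 1 of liver labelled WT, and serve here as reference points. The study followed hepatoblastoma, a liver tumor, grown in mice in which doxycycline keeps a YAP1 transgene on and its removal switches YAP1 off. RNA came from other animals: 4 tumors of 1 mouse 6 days off doxycycline (carrying the CAG-rtTA3 transgene on a B6N.FVB background), and 3 hbHep mice at days 114, 117 and 121. Another 4 tumors labelled YAP1 ON shared 1 mouse code. These and 3 livers of mice labelled WT FAH DeltaExon 5 on NTBC entered the RNA model only for its estimate of spread. The title of the series describes tumor cells that turn into functional hepatocytes, and the hbHep label stands for such cells in liver of mice that lack Fah exon 5; Fah encodes the enzyme that ends tyrosine breakdown.

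YAP1 is a transcriptional co-activator that binds DNA through TEAD factors and keeps liver cells in a growing, progenitor-like state, while the Hippo kinases hold it in check in mature hepatocytes. Mature hepatocytes differ along the liver lobule. Those beside the central vein receive Wnt signals and use beta-catenin with TCF/LEF factors to switch on pericentral genes such as Glul and Axin2, and those near the portal vein hold most of the urea cycle enzymes. Highly used liver genes can carry open chromatin not only at their promoters but along much of the gene.

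Each library was deposited as a list of short intervals on mm10, with a median width of 67, 71 and 70 bases at days 14, 33 and 64. The lists held 1023760, 780497 and 769500 intervals, and after merging covered 71.7, 57.5 and 55.8 Mb. No source used here gives the program and threshold behind the intervals or the read depth, so a longer list may be a deeper library. For each of 49943 RefSeq genes the covered share of a window of the gene and 10 kb on each side was therefore divided by the library's mean over all windows, which was 5.00, 3.95 and 3.83% of bases. This scaled coverage was compared as a log2 ratio after adding 0.1, and a gene was called higher or lower from 1.5-fold. The mean over all windows was 2.55% in WT liver and 1.38% in YapOn. Percentages of bases covered given below are not scaled, so they also differ with these means. Genes were used when the mean covered length over the 3 days was at least 1000 bases, which kept 21286. With 1 library a day there is no replicate, so no ratio below has an error or a test, and a difference between days cannot be told apart from a difference between the animals or preparations behind them.

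The libraries differed at genes that mark sex, which the labels do not give. Within 2 kb of the start of Ddx3y, a Y-linked RNA helicase gene, 55 bases were covered at day 14, 1189 at day 33 and 891 at day 64. The starts of Kdm5d, Uty and Eif2s3y held 0 covered bases at day 14, 459, 858 and 510 at day 33 and 397, 649 and 415 at day 64. Xist, expressed from an inactive X chromosome, had 1731, 138 and 222 covered bases. YapOn resembled day 14 at these starts, with 0 to 34 bases at the 4 Y-linked starts, and WT liver resembled days 33 and 64, with 233 to 766. Chromosome Y as a whole ran the other way: 969.8 kb of it was covered at day 14, 1.35% of that library's covered length. At day 33 it was 116.3 kb (0.20%), at day 64 157.9 kb (0.28%) and in WT liver 103.9 kb (0.28%). YapOn had 167.0 kb, or 0.85% of its covered length, a share below day 14 and above days 33 and 64 and WT liver. Of 17 Y-linked genes with enough covered length 14 were lower at day 64 and 2 higher (9.8 and 9.73% of all genes), with a median log2 ratio of -2.61. The sex of the animals is therefore not settled by these lists, and day and sex cannot be told apart between day 14 and the later days. Days 33 and 64 were alike at the gene starts, so the step between them is given beside the main results. The steps and the whole span share libraries, so their values are set side by side and are not independent of each other.

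Of the 21286 genes, 2071 (9.73%) had at least 1.5-fold more scaled coverage at day 64 than at day 14 and 2086 (9.8%) had at least 1.5-fold less. Genes with overlapping windows share intervals, and merged they made 1263 loci with more and 1144 with less. The median log2 ratio was 0.06, and the middle 90% of genes lay between -0.83 and 0.81. From day 14 to day 33 the calls were 1301 higher (6.11%) and 1532 lower (7.2%), and from day 33 to day 64 they were 772 higher (3.63%) and 665 lower (3.12%). Of the genes with more coverage at day 64, 804 (38.8%) had passed 1.5-fold by day 33 and not again after it, 388 (18.7%) passed it only after day 33, 101 passed it in both steps and 778 only over the whole span. Of those with less, 1002 (48.0%) had passed it by day 33 alone, 311 (14.9%) after day 33 alone, 94 in both steps and 679 only over the whole span. Just inside the threshold stood Gm7920, at a log2 ratio of 0.585, and just outside it Gm13483, at 0.5849. On the other side LOC115488830 (-0.5858) was just inside and Gm33058 (-0.5846) just outside. The plot of scaled coverage at both days shows the genes named most often below.

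**Figure D1:**
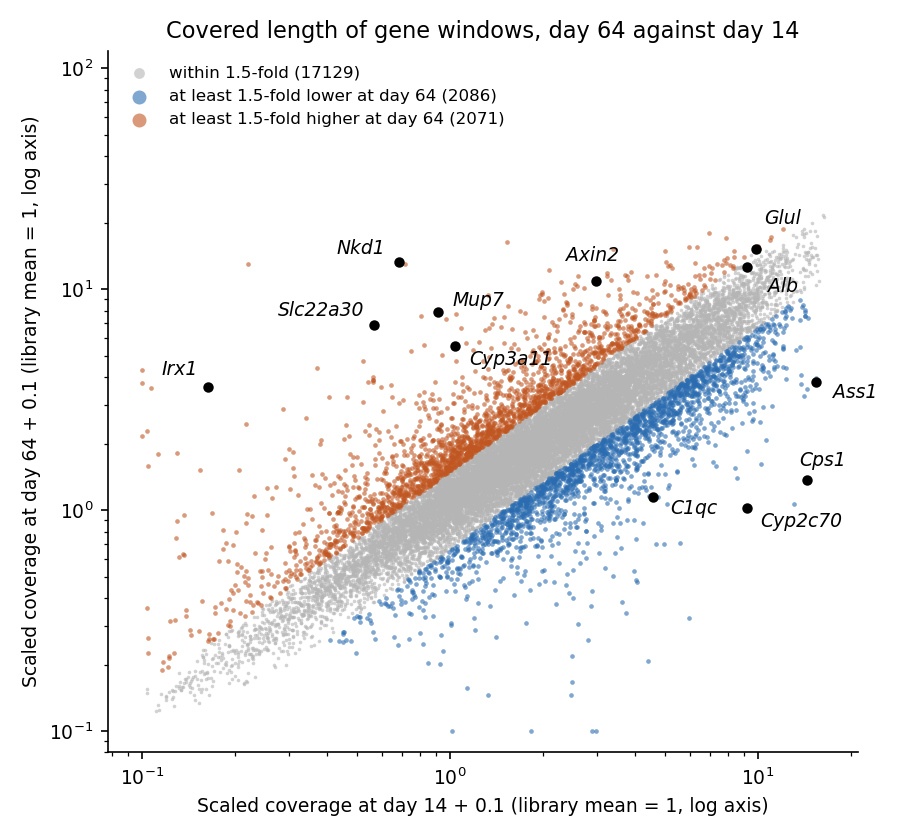
Scaled coverage of 21286 gene windows at day 14 (horizontal, log axis) and day 64 (vertical, log axis), each plus 0.1, with 1 library a day. Orange points are the 2071 genes at least 1.5-fold higher at day 64, blue points the 2086 at least 1.5-fold lower, and black points are labelled genes; Nkd1 and Irx1 lie far above the diagonal and Cps1 and Cyp2c70 far below.

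Relative to its level at day 14, coverage of the called genes changed more in the gene body than at the gene start. In percentage points the change at the start was no smaller. In 875 protein-coding genes of at least 5 kb with less coverage at day 64, the gene body beyond 1 kb from the start was covered to 15.4% at day 14, 7.67% at day 33 and 5.29% at day 64. Within 1 kb of the start of the same genes coverage was 48.9, 42.4 and 38.4%. In the 759 such genes with more coverage, the gene body was covered to 2.99, 3.80 and 5.13% and the start to 35.6, 38.2 and 39.8%. Over all 9449 genes of this kind the body was covered to 5.21, 3.87 and 3.71% and the start to 45.2, 42.8 and 41.1%. These shares are not scaled to the library, and the genes were chosen by the same ratio, so they describe where the difference lay and support nothing further. The 300-base promoter regions held a covered base at day 14 in 83.7% of 1374 genes with less coverage and at day 64 in 74.4%. Among 1345 genes with more coverage the share went from 65.1 to 70.7%. Of all 27025 promoters it was 50.9 and 49.1%.

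Pericentral genes and Wnt targets held more open chromatin at day 64. Of the 20 genes listed, all with enough covered length, 15 were higher at day 64 than at day 14, 1 was lower and 4 lay within 1.5-fold, against 9.73 and 9.8% of all genes. The list's median log2 ratio was 1.05 against 0.06 over all genes tested. It was 0.52 from day 14 to day 33 and 0.31 from day 33 to day 64. In that later step 5 of the 20 were higher and 1 was lower, against 3.63 and 3.12% of all genes. All 20 windows summed, coverage was 18.3% at day 14, 21.5% at day 33 and 28.4% at day 64, and 7.89% in WT liver. In the YapOn library, whose intervals are of another and narrower kind, it was 2.92%. Scaled to each library's mean the sum was 3.7, 5.4 and 7.4 at the 3 days, 3.1 in WT liver and 2.1 in YapOn.

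Nkd1, Axin2 and Rnf43, genes of Wnt feedback, had the 3 largest ratios of this list. Nkd1, an inhibitor of Wnt signaling that is itself a Wnt target (chr8:88521342-88594887), had 2.91% of its window covered at day 14, 5.76% at day 33 and 50.5% at day 64, against 3.01% in YapOn and 2.13% in WT liver. Its log2 ratio of day 64 over day 14 was 4.28, and that of day 64 over day 33 was 3.09, with 40, 75 and 546 intervals in the window. Day 64 stood alone, since the other 4 libraries had at most 5.76%. Axin2, a scaffold of the beta-catenin destruction complex, was covered to 14.3, 20.2 and 41.1% (log2 ratio 1.87, of which 1.06 after day 33), against 4.15% in WT liver. Rnf43, a ubiquitin ligase that removes Wnt receptors, was covered to 18.0, 19.2 and 43.9% (1.64). Its relative Znrf3 was covered to 6.34, 6.11 and 7.26%, which was within 1.5-fold. Notum, a secreted enzyme that inactivates Wnt proteins, was covered to 9.59, 8.502 and 21.1%, with a log2 ratio of 1.48, of which 1.32 came after day 33. The receptor gene Lgr5 and the transcription factor genes Sp5 and Tbx3 had passed 1.5-fold by day 33, with log2 ratios over the span of 1.29, 1.16 and 1.54.

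The enzymes and transporters of the list were spread more widely. Oat, which breaks down ornithine, went from 25.4 to 50.9% by day 33 and was at 48.9% on day 64. Cyp1a2 was covered to 22.8, 34.9 and 44.0%. Rhbg, an ammonia transporter, was covered to 13.5, 12.8 and 22.5%. Glul, glutamine synthetase, was already covered to 48.6% at day 14 and reached 55.6 and 57.9%, a log2 ratio of 0.63. Cyp2e1 was covered to 49.4, 55.4 and 52.0% (0.46), within 1.5-fold. Cyp27a1, an enzyme of bile acid synthesis, was the member with less coverage, at 41.3, 33.8 and 19.7% (-0.67), but within 5 kb of its start the log2 ratio was 0.20.

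Among urea cycle and amino acid breakdown genes, 8 of 20 held less open chromatin at day 64 than at day 14 and 0 held more (9.8% and 9.73% of all genes). All 20 had enough covered length. The median log2 ratio was -0.27, with 8 genes above 0 and 12 below, and within 5 kb of the gene starts it was 0.11. From day 14 to day 33 the median was 0.16 with 1 gene higher and 1 lower (6.11 and 7.2% of all genes). From day 33 to day 64 it was -0.37 with 8 lower and 0 higher (3.12 and 3.63% of all genes). Summed over the 20 windows, coverage was 42.4% at day 14, 35.2% at day 33, 19.7% at day 64 and 31.5% in WT liver. Scaled to each library's mean the sum was 8.48, 8.90 and 5.15 at the 3 days and 12.4 in WT liver, the highest of these. Cps1, which makes carbamoyl phosphate in the first step of the urea cycle (chr1:67122426-67231267), had 71.7% of its window covered at day 14, 47.8% at day 33, 4.83% at day 64 and 49.3% in WT liver, with 976, 763 and 137 intervals at the 3 days. Scaled coverage of Cps1 was 14.4, 12.1 and 1.26 at the 3 days and 19.3 in WT liver. Its log2 ratio of day 64 over day 14 was -3.41, of which -3.16 came after day 33. Day 64 was thus below the earlier days and below liver. Ass1, which joins citrulline and aspartate, was covered to 76.6, 68.9 and 14.2%, against 67.1% in WT liver. Scaled, these were 15.3, 17.4 and 3.71, against 26.3 in WT liver, so that the log2 ratio was 0.19 to day 33 and -2.20 after it.

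Other members followed with smaller ratios. Asl, the next enzyme of the cycle, was covered to 55.6, 32.7 and 19.2% (log2 ratio -1.14). Arg1, which releases urea, was covered to 30.8, 22.9 and 13.97% (-0.74) and in WT liver to 36.9%. Otc, which forms citrulline from ornithine, was covered to 9.09, 3.81 and 2.27% (-1.47) and was lower in both steps, by day 33 at a log2 ratio of -0.85. Outside the cycle Hgd, an enzyme of tyrosine breakdown, went from 46.7 and 40.9% to 13.5% (-1.38). Gstz1, the step after Hgd, was covered to 24.8, 19.9 and 18.9% (-0.01). Fah, the last enzyme of that pathway, was covered to 26.5, 16.03 and 11.6% (-0.78), but had a log2 ratio of 0.17 within 5 kb of its start. Not all amino acid genes shared this: Tdo2, which opens the tryptophan ring, was covered to 40.0, 43.9 and 39.1%, and Hpd, Tat and Hal lay within 1.5-fold. In WT liver the scaled coverage of the 20 genes was above that at day 64 with a median log2 ratio of 0.87, while that of the 20 pericentral genes was below it with a median of -1.24. The lines by day show both lists.

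**Figure D2:**
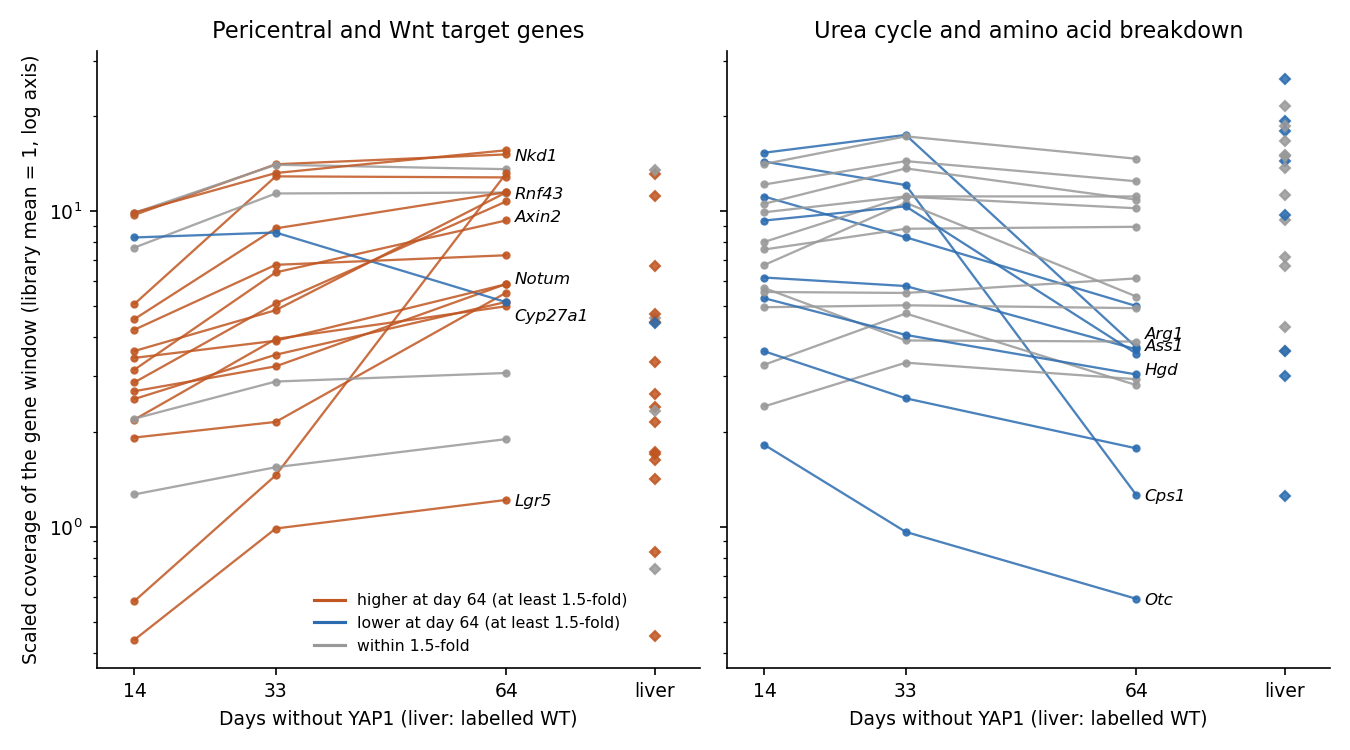
Scaled coverage (log axis, library mean 1) of the 20 pericentral and Wnt target genes (left) and the 20 urea cycle and amino acid genes (right) at days 14, 33 and 64 and in WT liver (diamonds), 1 library each. Lines are genes, orange for at least 1.5-fold more and blue for at least 1.5-fold less at day 64 than at day 14; Nkd1 climbs and Cps1 drops between days 33 and 64.

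Along the genes these differences ran through whole gene bodies. In 2 kb bins of Nkd1, the bin from 18 kb into the gene was covered to 0% at days 14 and 33 and to 84.9% at day 64, and the bin from 70 kb to 0, 0 and 75.5%. The first 2 kb were covered to 35.1, 40.8 and 75.8%. In Cps1 the bin from 50 kb went from 76.6 and 53.1% to 0%, while the bin from 2 kb went from 77.3 and 70.9 to 39.6%, and in Ass1 the bin from 30 kb went from 80.8 and 81.3% to 4.00% while the first 2 kb went from 82.7 and 77.5 to 46.8%. Axin2 was covered at day 14 in parts of its body (61.4% from 6 kb and 50.7% from 18 kb). The bin from 12 kb, between these, was covered to 1.25, 9.10 and 84.1% at the 3 days. Cyp2e1, in contrast, was covered to 86.5, 89.7 and 77.3% from 2 kb at the 3 days.

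**Figure D3:**
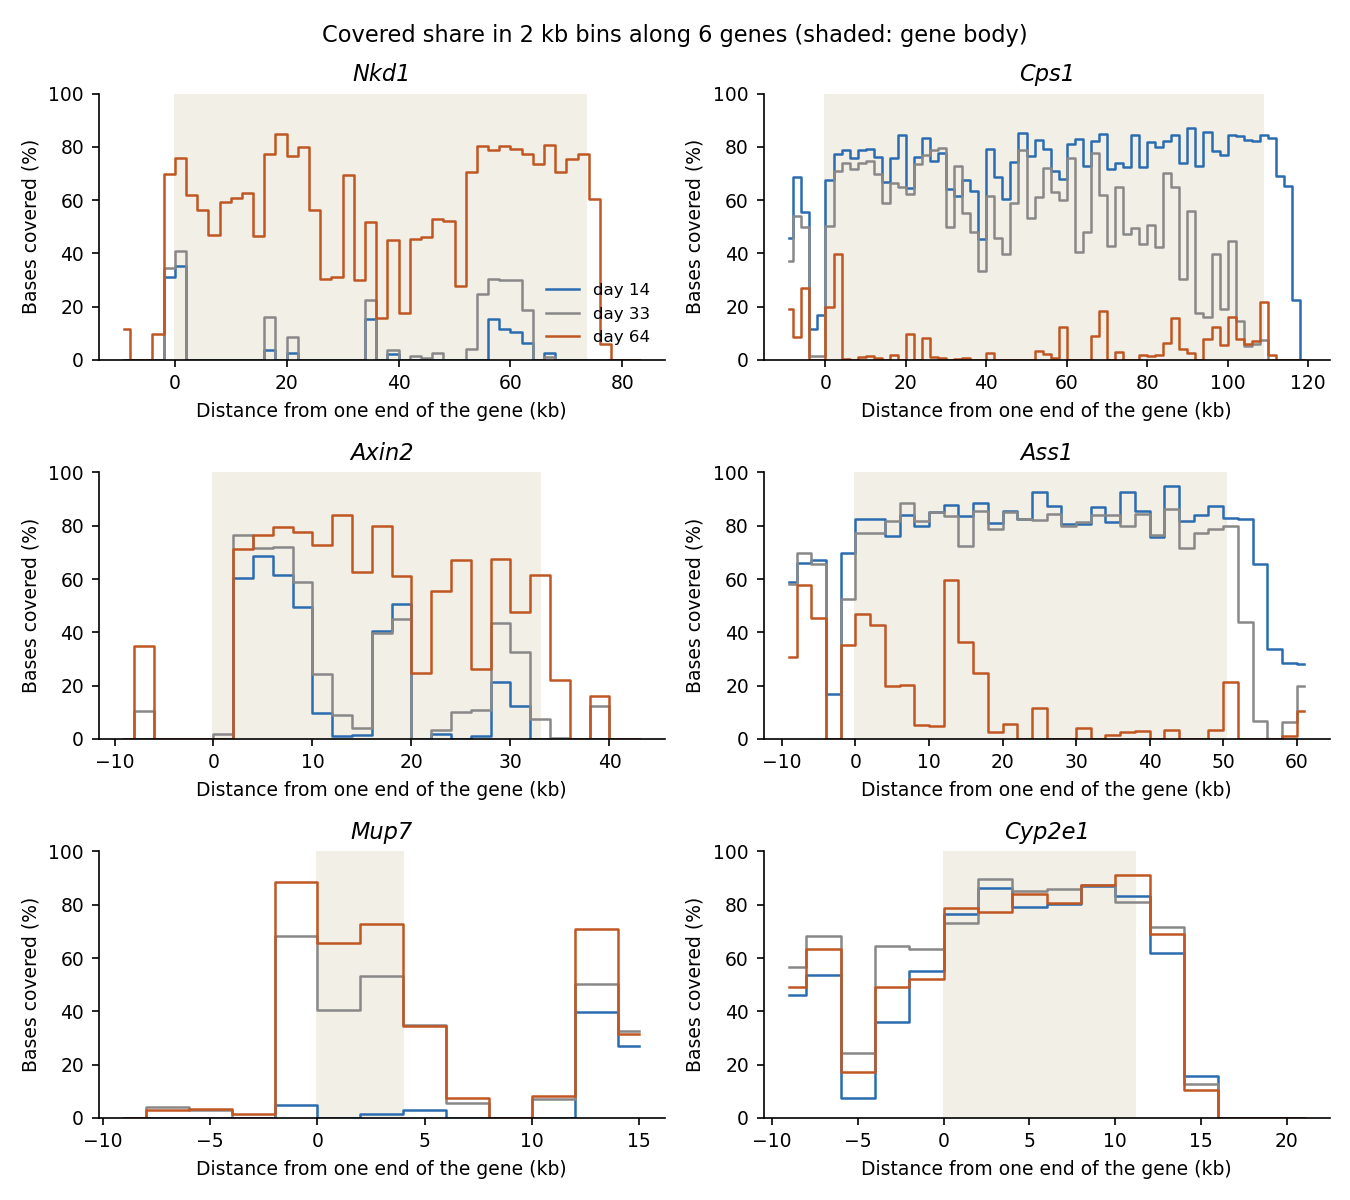
Share of bases covered (percent, vertical) in 2 kb bins along 6 genes with 10 kb on each side, against the distance in kb from the end of the gene with the lower coordinate; the gene body is shaded. Lines are the libraries of day 14 (blue), day 33 (grey) and day 64 (orange): Nkd1 is covered throughout only at day 64, and Cps1 and Ass1 lose coverage along the body.

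Promoter sequences show how far the start of a gene followed its window. The 250 bases before the start, from RefSeq on GRCm38.p6, are printed 5′ to 3′ for 7 genes chosen to show the patterns, with bases covered at day 64 in capitals. For Nkd1 the start used, at base 88527633, lies inside the gene record, which begins at 88521342. Before that inner start 0 bases were covered at days 14 and 33 and 139 at day 64. Where the record begins, coverage was present at all 3 days. The 2 kb before it were covered to 31.25, 34.65 and 69.65% and its first 2 kb to 35.1, 40.75 and 75.8%. The printed Nkd1 bases thus do not describe the beginning of the record. At Lect2, a secreted pericentral protein, 123, 134 and 193 bases were covered, and at Cyp2e1 214, 206 and 174. At Ass1 the count was 175, 177 and 194, so the promoter was covered at day 64 although most of the body was not.
Nkd1 (chr8:88527383-88527632, + strand): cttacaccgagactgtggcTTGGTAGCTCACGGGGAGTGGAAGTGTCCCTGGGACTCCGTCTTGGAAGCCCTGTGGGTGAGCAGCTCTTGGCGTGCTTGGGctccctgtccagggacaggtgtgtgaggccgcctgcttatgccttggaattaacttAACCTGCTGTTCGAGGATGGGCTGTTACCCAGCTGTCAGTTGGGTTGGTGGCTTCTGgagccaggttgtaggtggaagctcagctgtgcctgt
Lect2 (chr13:56548539-56548788, - strand): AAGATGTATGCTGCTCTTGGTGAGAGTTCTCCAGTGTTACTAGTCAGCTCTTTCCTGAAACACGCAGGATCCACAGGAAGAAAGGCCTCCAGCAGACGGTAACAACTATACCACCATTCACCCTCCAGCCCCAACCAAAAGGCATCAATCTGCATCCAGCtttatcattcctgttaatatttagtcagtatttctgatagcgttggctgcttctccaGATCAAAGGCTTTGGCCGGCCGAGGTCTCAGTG
Cyp2e1 (chr7:140763569-140763818, + strand): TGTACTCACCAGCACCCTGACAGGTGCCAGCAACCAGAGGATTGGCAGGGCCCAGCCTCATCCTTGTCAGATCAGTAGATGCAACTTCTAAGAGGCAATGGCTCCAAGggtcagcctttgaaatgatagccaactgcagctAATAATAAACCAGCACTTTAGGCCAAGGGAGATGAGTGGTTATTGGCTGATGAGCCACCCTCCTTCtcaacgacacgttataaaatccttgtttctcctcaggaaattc
Ass1 (chr2:31470020-31470269, + strand): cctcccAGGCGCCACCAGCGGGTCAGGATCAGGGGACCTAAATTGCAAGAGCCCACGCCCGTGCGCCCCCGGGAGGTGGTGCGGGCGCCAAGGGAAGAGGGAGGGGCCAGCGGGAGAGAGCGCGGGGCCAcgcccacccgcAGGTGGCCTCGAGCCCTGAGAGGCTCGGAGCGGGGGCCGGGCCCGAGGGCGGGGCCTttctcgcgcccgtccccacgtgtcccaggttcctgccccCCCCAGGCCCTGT

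A TCF/LEF motif, searched as CTTTGAA or CTTTGAT on both strands, was found in the printed bases of Lect2 (bases 219 to 225 of the line, on the opposite strand) and Cyp2e1 (bases 116 to 122). All 7 bases of the Lect2 match were covered at day 64 and 2 of them at day 14, whereas in Cyp2e1 7 were covered at day 14 and 0 at day 64. Over 300-base promoters (250 before and 50 after the start) the motif was in 8.79% of all 27025, in 9.96% of those of genes with more coverage at day 64 and in 6.48% of those with less. Of the 13 pericentral promoters given there, 5 held it (38.5%), and of the 14 urea cycle and amino acid promoters 3 did (21.4%). The TEAD motif GGAATG, on both strands, was in 14.7% of all promoters, 16.5% of those with more coverage and 13.2% of those with less. Such matches are descriptions of letters, not binding sites.

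A different set of genes had passed 1.5-fold by day 33, and part of it is known to differ between male and female mouse liver. The Mup, male-biased, female-biased, Cyp2c, Cyp3a and Slc22 lists were chosen after their values were seen. Of 22 major urinary protein (Mup) genes, which encode pheromone carriers secreted by the liver, 20 had enough covered length, and 19 of these were higher at day 64 than at day 14 and 0 lower, against 9.73 and 9.8% of all genes. Their median log2 ratio was 2.23, which was made up of 2.06 to day 33 and 0.15 after it. Summed over the windows, coverage was 7.45% at day 14, 21.7% at day 33, 22.7% at day 64 and 12.8% in WT liver. Scaled to each library's mean the sum was 1.49, 5.49 and 5.95 at the 3 days and 5.03 in WT liver. Mup7 (chr4:60066469-60070475) was covered to 4.08, 22.3 and 29.7%. Mup genes are near-identical neighbours, so intervals at a single member are uncertain. Of 9 male-biased liver genes with enough covered length, 7 were higher at day 64 and 0 lower, with medians of 1.79 over the span and 0.04 after day 33. Mup7 and Mup20 stand in both lists. Cyp2d9 was covered to 18.3, 39.5 and 43.6%, Elovl3, a fatty acid elongase, to 6.18, 36.02 and 25.2%, and Slco1a1, an organic anion transporter, to 0.93, 13.98 and 10.6%. Of 11 female-biased genes 0 were higher and 4 lower, among them Cux2, a homeobox transcription factor gene, at 9.87, 6.15 and 4.82%. The female-biased median was -0.46, with -0.20 to day 33 and -0.15 after it. Between days 33 and 64, 0 of the 20 Mup genes and 0 of the 9 male-biased genes passed 1.5-fold, and of the 11 female-biased genes 1 was lower. Of all genes 3.63% were higher and 3.12% lower in that step, so 0 calls in lists this small lie near those shares. The part of the animals' sex in these values was not tested.

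At 2 such promoters the printed bases went from uncovered to covered between days 14 and 33. Mup7 had 0, 182 and 220 of 250 bases covered at the 3 days and Slco1a1 0, 200 and 158. Cyp2c70, a bile acid hydroxylase gene, kept covered bases at its promoter at all 3 days: its window went from 45.7 to 4.03 and 3.52%, and its promoter held 157, 234 and 180 covered bases. It also holds the HNF4A motif CAAAGTCCA (bases 187 to 195 of the line), of which 0 bases were covered at day 14 and 9 at day 64. That motif was in 0.474% of all promoters, 0.595% of those with more coverage and 1.02% of those with less. Capitals mark bases covered at day 64.
Mup7 (chr4:60070476-60070725, - strand): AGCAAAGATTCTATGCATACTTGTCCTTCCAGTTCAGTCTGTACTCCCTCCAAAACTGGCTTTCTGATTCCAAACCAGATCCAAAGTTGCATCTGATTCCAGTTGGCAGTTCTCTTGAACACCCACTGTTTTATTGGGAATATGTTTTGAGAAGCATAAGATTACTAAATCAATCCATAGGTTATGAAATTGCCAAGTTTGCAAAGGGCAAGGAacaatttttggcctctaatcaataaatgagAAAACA
Slco1a1 (chr6:141946963-141947212, - strand): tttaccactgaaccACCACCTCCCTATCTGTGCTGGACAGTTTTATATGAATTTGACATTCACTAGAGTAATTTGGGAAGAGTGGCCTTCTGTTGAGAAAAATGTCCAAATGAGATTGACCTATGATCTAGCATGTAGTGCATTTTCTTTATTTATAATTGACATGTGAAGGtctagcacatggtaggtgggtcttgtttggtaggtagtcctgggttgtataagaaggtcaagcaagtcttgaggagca
Cyp2c70 (chr19:40187287-40187536, - strand): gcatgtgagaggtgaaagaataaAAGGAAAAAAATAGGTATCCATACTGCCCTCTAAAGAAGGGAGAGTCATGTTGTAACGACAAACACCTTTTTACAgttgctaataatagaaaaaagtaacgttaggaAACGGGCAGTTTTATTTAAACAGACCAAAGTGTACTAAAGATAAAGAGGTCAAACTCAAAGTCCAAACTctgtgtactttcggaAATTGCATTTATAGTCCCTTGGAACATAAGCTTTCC

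Among cytochrome P450 and drug metabolism genes calls fell on both sides. Of 30 listed genes 27 had enough covered length, 8 were higher and 4 lower (9.73 and 9.8% of all genes), with a median log2 ratio of 0.43. After day 33 the median was 0.13, with 4 higher and 1 lower (3.63 and 3.12% of all genes in that step). Cyp3a11, a main drug-metabolizing P450, was covered to 4.68 and 4.67% at days 14 and 33 and to 20.7% at day 64, against 0.99% in WT liver (log2 ratio 2.41). Its neighbour family member Cyp3a25 had passed 1.5-fold by day 33 (24.965, 54.1 and 48.1%). The aldehyde oxidase gene Aox3 was covered to 8.37, 21.1 and 22.7%, and Ugt2b5, which adds glucuronic acid to substrates, to 5.54, 7.14 and 15.9%. Ces3b, a carboxylesterase gene, was the lowest of the list at 33.8, 11.995 and 7.37%. Of the Cyp2c family Cyp2c67 went from 1.21 and 2.29 to 9.55%, whereas Cyp2c68 went from 18.1 to 0.92% by day 33. Members of the Cyp2c, Cyp3a and Ugt2b families are similar in sequence, so single members are uncertain.

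A pair of transporter genes had more coverage after day 33. Slc22a30 (chr19:8335371-8405111), of the organic anion transporter family, was covered to 2.33, 2.73 and 26.0%, against 1.27% in WT liver. Slc22a12, a urate transporter gene best known from kidney, was covered to 1.35, 1.18 and 16.5%, against 1.34%. Among bile acid genes 6 of 20 were higher and 2 lower, against 9.73 and 9.8% of all genes, with medians of 0.38 to day 33 and -0.22 after it. Cyp7a1, the rate-limiting enzyme of bile acid synthesis, was covered to 44.6, 33.3 and 22.4% (log2 ratio -0.60), and Abcb4, which exports phospholipid into bile, to 13.1, 27.4 and 18.1%. Among 20 genes of lipid oxidation and ketogenesis, 6 were higher and 1 lower (9.73 and 9.8% of all genes; medians 0.31, and 0.13 after day 33), led by Acaa1b (24.5, 28.02 and 50.4%) and Fabp1 (21.2, 35.4 and 43.5%).

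The genes that define hepatocytes were open at all 3 days. Summed over 25 secreted protein genes coverage was 44.5, 38.7 and 36.1%, or 8.9, 9.8 and 9.4 when scaled to each library's mean. Of the 25 genes 2 were higher and 4 lower (9.73 and 9.8% of all genes), with a median log2 ratio of 0.19, and -0.07 after day 33. Alb, albumin, was covered to 45.6, 43.1 and 47.9% (0.45). Of 22 hepatocyte transcription factor genes 1 was higher (Tbx3, also in the pericentral list) and 1 lower, both below the shares of all genes, with a median of 0.22 and 0.02 after day 33. The lower was Onecut1, at 49.9, 14.3 and 13.1%, although within 5 kb of its start the log2 ratio was 0.04. Hnf4a was covered to 49.2, 34.1 and 35.0% (-0.10).

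YAP1 target genes showed no common direction. Of 25 listed 21 had enough covered length, 2 were higher and 3 lower, against 9.73 and 9.8% of all genes. The median log2 ratio was -0.23, and 0.17 within 5 kb of the gene starts; after day 33 it was 0.02. Ptpn14, a YAP1 inhibitor that YAP1 itself induces, was covered to 9.99, 3.27 and 3.07%, whereas Ccn1 was covered to 12.4, 13.8 and 15.4% (0.68) and Ccn2 to 7.32, 6.60 and 4.93% (-0.17). Yap1 itself was covered to 7.06, 6.06 and 6.14% (0.17) and Ctnnb1, which encodes beta-catenin, to 31.1, 16.7 and 23.5% (-0.02). Of 25 bile duct and progenitor genes 13 had enough covered length, of which 0 were higher and 3 lower (median -0.20, and -0.07 after day 33), and Sox9 lay within 1.5-fold (7.997, 5.48 and 4.34%). Among the 12 below the minimum, Spp1 was covered to 8.35, 1.28 and 0.66% and Cd24a to 6.57, 2.61 and 1.32%. Of 20 fetal liver genes 11 had enough covered length, of which 3 were higher (Afp, Igf2 and Peg3) and 0 lower, with a median of 0.26. Afp stood at 9.40, 6.74 and 13.0% (0.83) and Igf2 at 2.52, 3.35 and 4.20% (0.99). Of 15 cell division genes 0 were higher and 1 was lower, and Mki67 lay within 1.5-fold at -0.01.

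Of 20 macrophage markers 9 had enough covered length, and 5 of these held less open chromatin at day 64 and 0 held more (9.8 and 9.73% of all genes), with a median log2 ratio of -0.83 that lay almost wholly before day 33 (-0.73, and -0.07 after). C1qa, C1qb and C1qc, the chains of complement C1q, share their windows. C1qc was covered to 22.4, 5.02 and 4.01%, against 14.05% in YapOn and 5.75% in WT liver. Scaled to each library's mean these were 4.48, 1.27 and 1.05, against 10.2 in YapOn and 2.25 in WT liver, so YapOn was the highest. Csf1r, the receptor that macrophages need to survive, was covered to 16.04, 5.09 and 3.91%. Clec4f, which marks resident Kupffer cells, was covered to 0, 0.08 and 0.77% and was not among the 9. Summed over the 20 markers coverage was 5.07, 2.10 and 2.00%. In a mixed tissue fewer cells of a type and less open chromatin per cell cannot be told apart. Of 18 endothelial genes 0 were higher and 1 was lower (Stab1), and of 18 ubiquitous genes 1 was higher and 2 were lower. Of 20 T, NK and B cell markers 7 were usable, of which 3 were higher (Nkg7, Cd4 and Prf1) and 0 lower, with a median of 0.52 and -0.07 after day 33. Of 4 usable red blood cell precursor genes 1 was higher (Alas2), and of 6 neuron and muscle genes 1 was higher (Rbfox3). Neutrophil and stellate cell markers, with 4 and 5 usable members, had 0 calls, and S100a9, Ly6g and Mpo had 0 covered bases at all 3 days. The part of such cell types in the other results was not tested.

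**Figure D4:**
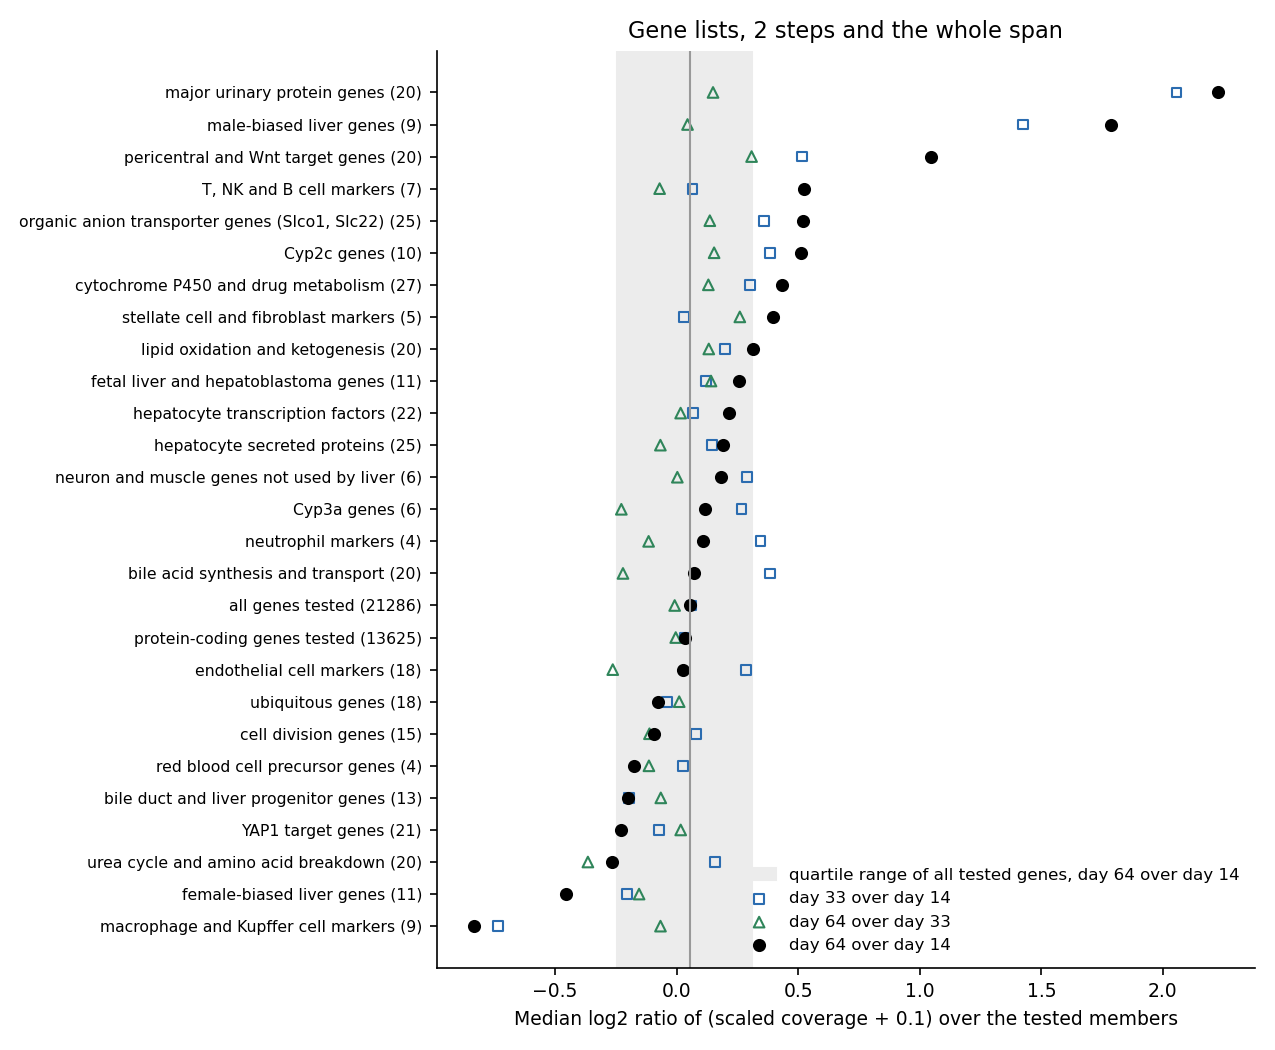
Median log2 ratio of scaled coverage plus 0.1 over the tested members (number in brackets) of each gene list, for day 64 over day 14 (black dots), day 33 over day 14 (blue squares) and day 64 over day 33 (green triangles); grey marks the range from the lower to the upper quartile of all 21286 genes. The Mup and male-biased lists lie far right by day 33, and the urea cycle list turns left after day 33.

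The single genes with the most extreme ratios included members of these groups. By the rule used for naming (protein-coding, day 33 between the other days, neighbours taken once), the 12 highest were Gm8127, Irx1, Nkd1, Gm46650, Dkk4, Gm8126, Slc22a30, Slc22a12, Hcrtr2, Gm32280, Teddm2 and Mup7. Irx1, a homeobox transcription factor gene (chr13:71958232-71963723), was covered to 0.32, 0.63 and 13.4%, against 1.08% in WT liver (log2 ratio 4.46). Dkk4, a secreted Wnt antagonist, was covered to 0.07, 6.23 and 6.50% and was at 7.78% in WT liver. Hcrtr2, an orexin receptor gene, was covered to 0.59, 4.17 and 8.999%. The 12 lowest were Cps1, Cyp2c70, Dpyd, Lrtm2, Kynu, Tbc1d8, Lancl1, Ly6c1, Bud13, Slc25a18, Myl7 and Rhd. Dpyd, which breaks down pyrimidines (chr3:118562109-119432924), went from 1919 intervals at day 14 to 414 and 173, and from 13.8 to 2.67 and 1.03% of its window. Kynu, of the kynurenine pathway, was covered to 11.6, 4.08 and 1.22%, and Lancl1, which adjoins Cps1, to 17.4, 3.34 and 2.19%.

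WT liver served as a further reference. The genes with more coverage at day 64 had a median scaled coverage of 1.07, 1.67 and 2.16 at the 3 days and 1.59 in WT liver, and those with less had 3.24, 1.98 and 1.61, and 1.85 in liver. Across the 21286 genes the log2 ratio of day 64 over day 14 had a Pearson correlation of 0.45 (Spearman 0.43) with that of WT liver over YapOn, which shares no library with it. Genes are not independent and no p is given. Both ratios set libraries with covered Y-linked starts against libraries without them, and the YapOn list is of another kind, with a median width of 21 bases. With WT liver over day 33, whose libraries are alike at those starts, the correlation was 0.09 (Spearman 0.09).

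RNA was not part of the calls above, although the lists were chosen with earlier RNA results known. Of 17953 genes tested with limma, 4322 (24.1%) rose and 3894 (21.7%) fell from the 4 day 6 tumors to the 3 hbHep mice at a Benjamini-Hochberg adjusted p under 0.05. The 4 tumors came from 1 mouse and were fitted as separate samples. The p-values given here and below therefore do not measure the spread between mice on the tumor side. Abundance is scaled reads per base, and fold changes are of log2(abundance + 1). Of 1008 genes with more open chromatin at day 64 and tested RNA, 436 (43.3%) rose and 129 (12.8%) fell, against 26.7 and 20.04% of the 12737 genes with both readouts. Of 1258 with less, 281 (22.3%) rose and 338 (26.9%) fell. Where the step after day 33 had itself passed 1.5-fold, 132 of 222 genes (59.5%) with more rose and 18 fell, and 72 of 204 genes (35.3%) with less fell and 26 rose. The RNA groups differ in animal, strain and time from each other and from the libraries above, and Ddx3y was at 16.3 ± 3.24 (SD, n = 4) in day 6 tumors and 2044 ± 458 (SD, n = 3) in hbHep, so the RNA groups differ at this Y-linked gene too.

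**Figure D5:**
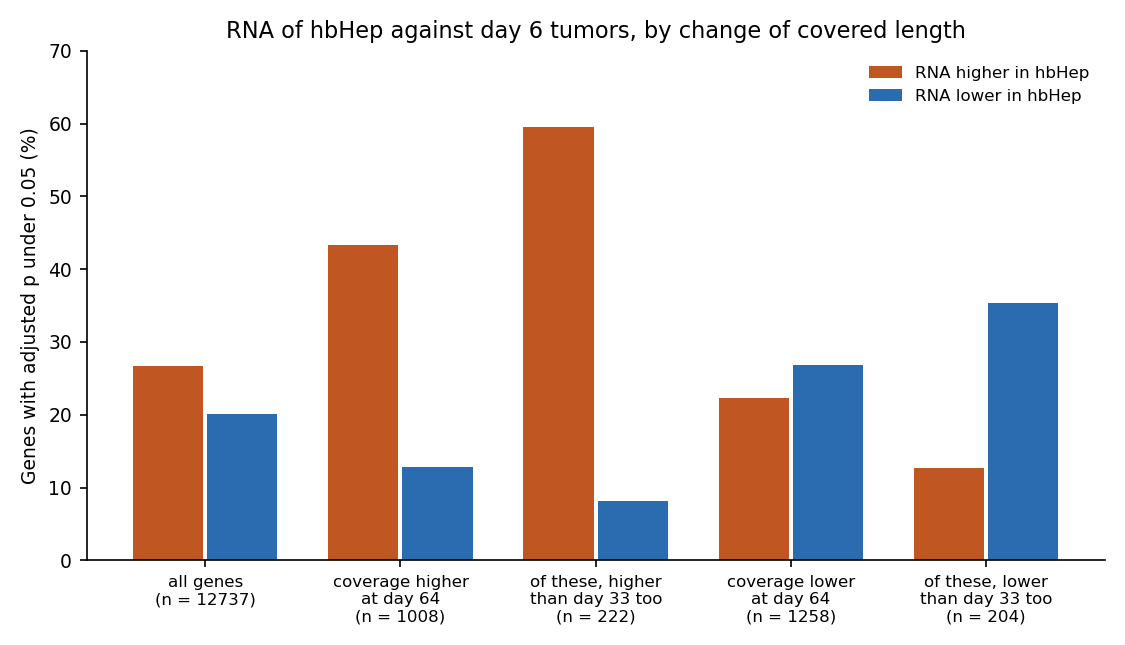
Percent of genes whose RNA was higher (orange) or lower (blue) in hbHep than in day 6 tumors at an adjusted p under 0.05 (limma), among all genes with both readouts and among genes with more or less covered length at day 64. Among 222 genes that were also higher at day 64 than at day 33, 59.5% rose.

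Of the 20 pericentral and Wnt genes 14 rose in RNA and 0 fell, against 26.7 and 20.04% of the genes with both readouts. Their median log2 change was 1.28, against 0.04 over the genes with both readouts. This list was chosen with earlier RNA results known. Nkd1 RNA was at 486, 716, 595 and 703 in the 4 day 6 tumors and at 13126, 2907 and 12907 in the 3 hbHep mice. The groups did not overlap, and the log2 change was 3.67 ± 0.41 (SE, adjusted p 4.5e-06, limma). Rhbg rose from 998.5 ± 139.1 to 11810 ± 3073 (SD, n = 4 and 3), Glul from 17420 ± 3156 to 63690 ± 21260 and Oat from 51160 ± 9390 to 144400 ± 38850, with adjusted p-values from limma of 5.0e-08, 0.00034 and 0.00053. Axin2 rose by less, at 689 to 808 against 964 to 1231 (log2 change 0.64 ± 0.12 SE, adjusted p 0.00074, limma). Cyp2e1, whose window lay within 1.5-fold, had a log2 change of -0.12 (adjusted p 0.80, limma).

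Of the 20 urea cycle and amino acid genes 7 rose in RNA and 3 fell, against 26.7 and 20.04% of the genes with both readouts. Cps1 RNA was at 123170, 167620, 117750 and 105970 in day 6 tumors and 35897, 69623 and 60519 in hbHep, a log2 change of -1.25 ± 0.32 (SE, adjusted p 0.0055, limma). Every hbHep mouse lay below every tumor. Ass1 was at 15325 to 19402 in tumors and 14533 to 18971 in hbHep, with overlapping groups and a log2 change of -0.06 ± 0.16 (SE, adjusted p 0.80, limma). Cyp2c70, Dpyd and Kynu, with windows among the 12 lowest, had log2 changes of -0.49, -0.10 and -0.30 (adjusted p 0.20, 0.65 and 0.079, limma). Slc22a30, which gained after day 33, was at 2700 to 3749 in tumors and at 3912, 409 and 3989 in hbHep, so 1 mouse lay far below the others (adjusted p 0.23, limma). Mup7 rose from 25.3 ± 19.3 to 194.7 ± 160.5 (SD, log2 change 2.84, adjusted p 0.00099, limma), and Irx1 from 3.68 ± 2.5 to 60.8 ± 54.2 (SD, log2 change 3.57, adjusted p 0.00015, limma). Fah RNA fell by 2.46 on the log2 scale. It was at 929.6 ± 245.8 in hbHep and at 1649 ± 160.2 in the livers labelled WT FAH DeltaExon 5 (SD, n = 3 each). The hbHep mice carry the Fah deletion, and its part in the fall was not tested. Igf2 and Afp rose by 6.59 and 6.41, with Afp at 972, 18885 and 3570 in the 3 hbHep mice. Mki67 rose by 1.69, although its window lay within 1.5-fold.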

How the data were processed

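Open chromatin was deposited as 1 interval list per library on mm10. Per the submitters' processing notes, bcl2fastq, cutadapt, BWA, SAMtools and Picard were used; the interval caller, its threshold and whether read ends were shifted are not stated there. The 2-number score the authors deposited beside each interval was not used. Intervals were read as 0-based, merged, and summed per window with Python 3.11.15 and numpy 2.4.6; the sum was tested on simulated intervals. Gene positions were RefSeq's (GRCm38.p6). RNA was deposited by the authors as a signal per gene, read as scaled reads per base, made with kallisto 0.45.0 and sleuth per the submitters' processing notes. It was rescaled by median-of-ratios factors (0.9632 to 1.1), technical libraries of an hbHep mouse were averaged, and genes with an abundance of at least 10 in at least 3 samples were fitted with limma 3.58.1 in 1 model of 4 groups, with Benjamini-Hochberg adjustment. The 4 day 6 tumors came from 1 mouse, and the 4 YAP1 ON tumors also shared 1 mouse code, so their spread is between tumors. Genes were named by 3 rules: the 12 highest and 12 lowest ratios, the 2 highest and lowest of each of 19 lists, and fixed genes of interest; others were named after their values were seen. The members and lists were chosen with earlier results of these data known. Other windows, scalings, pseudocounts, minimums, thresholds and days were tried.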

Additional observations from a re-analysis of the deposited data

Results flagged for a closer look

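Only genes selected for showing their RNA values were examined, not all genes. In 4 of them 1 of the 4 day 6 tumors lay far from the others in RNA, with a gap to the nearest above the critical share of the range for 4 samples. Chance alone flags about 1 in 20 groups. Kynu had its lowest value at 2050, with the next at 2376. Spp1, osteopontin of duct and progenitor cells, had its highest at 6515, with the next at 2634. C1qc had its lowest at 1906, with the next at 2276, and Slco1a1 its lowest at 206, with the next at 314.8. Open-chromatin values were not examined in this way, since each day is 1 library.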

How the results depend on the processing

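With 1 library a day, the counts rest on the window, the filter and the threshold. Against 2071 genes with more and 2086 with less coverage at day 64, the gene body alone gave 1279 and 1338, and 5 kb on each side of the gene start gave 530 and 922, which moved the share of higher calls from 49.8 to 36.5%. No minimum covered length gave 5407 and 4045, a 2-fold threshold 664 and 645, and protein-coding genes alone 1096 and 1324. A pseudocount of 0.5 gave 1275 higher. Day 33 in place of day 14 gave 772 and 665, and day 33 in place of day 64 gave 1301 higher; these 2 were chosen after seeing the data. The other 7 settings kept both counts within 1.5 times. The share of covered length within 1 kb of a gene start was 17.2, 19.8 and 19.6% at days 14, 33 and 64. Within 500 bases it was 10.7, 12.7 and 12.8%, and with equal numbers of the widest intervals 18.2% at day 14 and 19.83% at day 33. The correlation with WT liver over YapOn was 0.4404 with a pseudocount of 0.5, 0.4382 over gene bodies, 0.4201 with the widest intervals, 0.4384 on chromosomes 1 to 19 and 0.0871 with day 33 in place of YapOn, the last 2 added after seeing the data.

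Of 249 list medians under planned settings 235 kept their direction and their side of 1.5-fold and 14 did not; within 5 kb of the gene start the urea cycle list was at 0.11, the YAP1 targets at 0.17 and the endothelial markers at -0.47. Of 996 values of named genes 935 counted as the same, 56 changed without reversing and 5 reversed. The 5 were all within 5 kb of the gene start: Onecut1 (0.0449), F2 (0.0384), Cyp3a13 (0.0215), Cyp27a1 (0.20) and Fah (0.17). With day 33 in place of day 14, Cyp7b1 (-0.0454), Slco1a1 (-0.34), St14 (0.15), Cd4 (-0.22), Alas2 (-0.19) and Rab7 (0.0378) reversed, and with day 33 in place of day 64, Ambp (-0.0191), Ass1 (0.19), Cyp27a1 (0.0514) and Afp (-0.13) did. The cause was not tested. The RNA counts of 4322 and 3894 kept within 1.5 times under every setting run, leaving out 1 sample at a time included (3788 to 4016 higher and 3335 to 3468 lower). Replicate numbers did not pair the RNA samples (deviations of same-numbered samples correlated at -0.08, -0.07 and -0.04), and a fit with the replicate block gave 3351 and 2632.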
